A study of Fundulus heteroclitus with 20 samples.

Results

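Receptors by which microglia and other brain cells sense nucleotides and lipids released from damaged tissue were followed 1 h after a needle lesion of the fish brain. The set held gpr34, every gene of the deposited table whose description names a P2Y or P2X purinoceptor, and every gene described as a colony stimulating factor 1 receptor. These were 28 of the 13679 genes listed: gpr34, 19 P2Y genes, 6 P2X genes and 2 csf1r genes. The gene gpr34 was chosen by its counts in these libraries, being among the 10 genes called lower in the lesioned hemisphere at an adjusted p-value cutoff of 0.1, so its difference between hemispheres is given as a description, with no test. RefSeq's annotation of a later assembly (MU-UCD_Fhet_4.1) lists the same gene ID without a gene name, as LOC105921524, so the name gpr34 rests on the deposited table. The other 27 genes were taken by their descriptions alone.

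The midbrain/diencephalon of 10 adult mummichogs (Fundulus heteroclitus, a killifish) was split into its lesioned and contralateral intact sides, and total RNA of each was sequenced, which gave 20 libraries. A 23G needle had been turned down through the optic tectum, the tegmentum and the hypothalamic tissue beneath them under 2-phenoxyethanol anesthesia, and each fish was its own control. No uninjured fish was sequenced, and every fish had gone through anesthesia and the lesion, so the intact hemispheres are those of injured, anesthetized animals. The labels place all intact hemispheres on the left and all lesioned ones on the right, whereas the study's methods divide each group equally between sides. If the labels are right, lesion and side cannot be told apart.

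ATP and ADP leak from torn cells, and cells read them through P2 receptors. P2X receptors are cation channels that ATP opens, and P2Y receptors couple to G proteins and bind ATP, ADP, UTP or UDP-sugars. In mammals microglia carry P2Y12, which binds ADP and steers their processes toward a wound, as well as P2Y13, P2X4 and P2X7. GPR34 is a G protein-coupled receptor related in sequence to P2Y12, is enriched in mammalian microglia, and binds lysophosphatidylserine, a lipid. CSF1R is the receptor tyrosine kinase on which microglia and macrophages depend for survival.

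Each library held between 9213580 and 11070103 counts on the listed genes. Levels are CPM, counts brought to the customary common library size after scaling by the trimmed mean of M-values (TMM), and differences are log2 fold changes of lesioned over intact hemispheres. Both come from counts, which were tested with edgeR's quasi-likelihood test with fish as a block and Benjamini-Hochberg adjustment over all 10513 genes that passed a filter on low counts. The study's cutoffs of 0.1 and 0.4 were kept, the second of which admits many false calls. Exon lengths were not used here, so levels are compared within a gene and not between genes. The intact hemisphere of fish 3 lay apart on the first principal component (-41.3, against -10.3 to 22.4 in the other intact hemispheres), and values without that fish are given where they differ in call. In bulk tissue, fewer cells of a type and less RNA per cell cannot be told apart.

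Of the 28 genes, 11 passed the filter and 17 did not. The 11 were gpr34, both csf1r genes, 6 of the 19 P2Y genes and 2 of the 6 P2X genes. The set without gpr34 held no call at 0.1 among its 10 tested genes in edgeR's quasi-likelihood test, against 1.38% of all tested genes (1.28% higher and 0.0951% lower), and none by DESeq2. At 0.4 there were 3 calls, all lower in the lesioned hemisphere, where 3.97% of all tested genes were called lower, 6.12% higher and 10.1% in either direction. These 3 genes, csf1r, its second copy and p2ry1, were also the ones with an unadjusted p-value under 0.05, against 11.7% of all tested genes. The count at 0.4 was 0 without fish as a block, 1 without fish 8 or fish 9, and 5 without fish 3 (the added genes being LOC105932601 and LOC105918645), and at 0.1 it was 1 without fish 1 (csf1r) or without fish 3 (p2ry1). Calls over all tested genes moved too. At 0.4 they went from 1060 to 88 without the block, 279 without fish 8 and 318 without fish 9. Without fish 3 they were 2066. At 0.1 they were 145 in the main fit, 108 without fish 1 and 212 without fish 3. The median log2 fold change of the 10 genes was -0.09, and 9 were negative, against a median of -0.01 and 54.9% negative over all tested genes.

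The plot of all tested members shows these differences with the ratios of single fish. The P2Y genes near 1 CPM have the widest intervals.

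**Figure D1:**
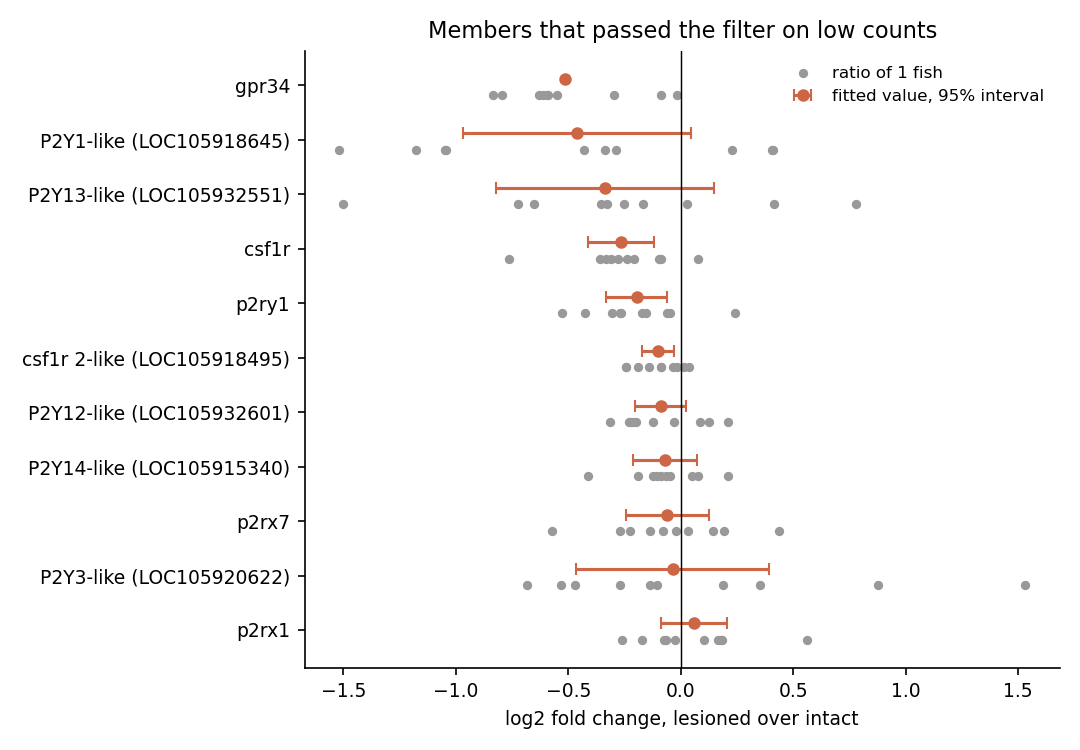
Log2 fold change of lesioned over intact hemispheres for the 11 members that passed the filter on low counts. Orange points are fitted values from edgeR with 95% confidence intervals (none is drawn for gpr34, which was chosen by this difference), and gray points are the log2 ratios of the 10 fish. The interval of csf1r runs from -0.41 to -0.12, and that of p2rx1 (-0.09 to 0.21) spans 0.

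In intact hemispheres gpr34 was counted at 16.3 CPM in the lowest fish, 31.4 at the median and 35.7 in the highest. In lesioned hemispheres it was counted at 16.1 CPM in the lowest, 20.5 at the median and 23.5 in the highest. Only the intact hemispheres of fish 3 (21.2 CPM) and fish 10 (16.3 CPM) lay within the lesioned range, and the other 8 lay above every lesioned hemisphere. The mean was 29.4 ± 6.40 CPM in intact and 20.3 ± 2.19 CPM in lesioned hemispheres (SD, n = 10 each). The log2 fold change was -0.51 (standard error 0.08), which is 29.9% less, and lesioned was below intact in 10 of 10 fish. For scale, 0.228% of all tested genes were lower in every fish. Since gpr34 was chosen by this same difference, that share lends its fall no support.

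The size of the difference varied between fish. The log2 ratio was -0.02 in fish 10 and -0.09 in fish 3, the fish with the lowest intact levels, and it lay between -0.83 and -0.30 in the other 8. The lesioned hemispheres were more alike than the intact ones, with a SD of 0.159 against 0.362 on the log2 CPM scale. That ratio of spreads, 0.440, was smaller in 0.837% of all tested genes, whose median was 0.960. It rested on fish 3 and 10, since without both the ratio of spreads was 0.839. The ratio was computed after the values had been seen, and its relation to the lesion was not tested.

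The plot of gpr34, both csf1r genes and p2ry1 shows the level in each hemisphere.

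**Figure D2:**
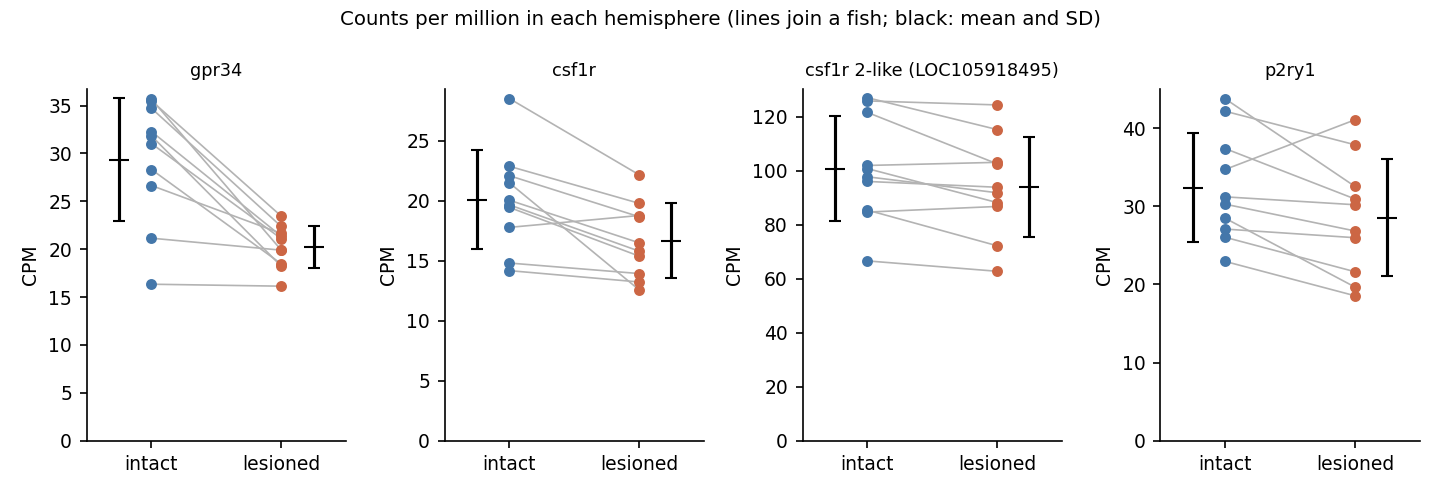
Level in CPM of gpr34, csf1r, LOC105918495 and p2ry1 in the intact (blue) and lesioned (orange) hemispheres of 10 fish, with a line for each fish and the mean and SD in black. Lines for gpr34 run downward in 10 fish and converge near 20 CPM on the lesioned side, while the ranges of the other genes overlap widely.

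Both csf1r genes are duplicates of 1 vertebrate receptor. The RefSeq annotation, used here for names and gene order, calls csf1r csf1ra and LOC105918495 csf1rb. In zebrafish, csf1ra also acts in yellow pigment cells, and both copies take part in forming microglia. In that annotation csf1ra lies next to pdgfrb, a related receptor tyrosine kinase gene.

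The csf1r gene was counted at 14.2 CPM in the lowest, 19.9 at the median and 28.5 in the highest intact hemisphere, and at 12.6, 16.2 and 22.2 CPM in lesioned ones. It was lower on the lesioned side in 9 of 10 fish, and the ranges overlapped. The log2 fold change was -0.26 (standard error 0.07), and its adjusted p of 0.122 in edgeR's test missed the cutoff of 0.1. Without fish 1, the fish in which csf1r was higher on the lesioned side, it was -0.30 with an adjusted p of 0.0697 from the same test, the smallest of 17 alternatives, which ranged up to 1.00.

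LOC105918495, described as macrophage colony-stimulating factor 1 receptor 2-like, was counted at 66.6 CPM in the lowest, 99.3 at the median and 127 in the highest intact hemisphere. The corresponding lesioned values were 62.8, 92.9 and 124 CPM. Its log2 fold change was small, at -0.10 (standard error 0.03, adjusted p = 0.257, edgeR), and 8 of 10 fish were lower on the lesioned side. The log2 ratio of csf1r lay below that of its copy in 9 of 10 fish, by 0.16 on average (SD 0.19; exact permutation of signs over fish, two-sided, p = 0.0215). Differences of single fish ran from -0.52 to 0.22. This test, chosen after the values had been seen, was the only one made between members.

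Of the P2Y genes, p2ry1 encodes an ADP receptor coupled to calcium release. It was counted at 22.9 CPM in the lowest, 30.7 at the median and 43.7 in the highest intact hemisphere, against 18.5, 28.5 and 41.1 CPM in lesioned ones. The lesioned side was lower in 9 of 10 fish, and the groups overlapped over most of their range. The log2 fold change was -0.20 (standard error 0.06), with an adjusted p of 0.239 in edgeR's test. Fish 3 was the exception, at a log2 ratio of 0.24, and without it the log2 fold change was -0.25 with an adjusted p of 0.0387, the smallest of the 17 alternatives, which ranged up to 1.00.

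LOC105932601 is described as P2Y purinoceptor 12-like, after the microglial ADP receptor of mammals, and which cells express it here was not tested. It had a lowest level of 30.0, a median of 41.7 and a highest of 52.6 CPM in intact hemispheres. Lesioned hemispheres ran from 27.6 to 55.4 CPM, with a median of 35.8. Lesioned was lower in 7 of 10 fish and higher in fish 2, 3 and 4. Its log2 fold change was -0.09 with a 95% confidence interval of -0.20 to 0.02 (adjusted p = 0.552, edgeR), and without fish 3 it was -0.12 with an adjusted p of 0.254 from the same test, the smallest of the 17 alternatives, which ranged up to 1.00. In each library, the log2 ratio of gpr34 to this gene was lower on the lesioned side of 9 of 10 fish, by 0.41 on average (SD 0.23). The same difference, lesioned minus intact, was -0.40 (SD 0.25, lower in 9 fish) against LOC105918495. It was -0.30 (SD 0.33, 8 fish) against p2ry1 and -0.24 (SD 0.27, 8 fish) against csf1r. These values contain the difference for which gpr34 was chosen.

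P2Y14-like and P2Y13-like receptors each had 1 copy that passed the filter, the P2Y13-like one near 1 CPM. LOC105915340 (P2Y purinoceptor 14-like, the type that binds UDP-glucose in mammals) was counted at 6.10 to 13.5 CPM in intact and 5.89 to 13.7 CPM in lesioned hemispheres, with a log2 fold change of -0.07 (95% confidence interval -0.21 to 0.07). LOC105932551 (P2Y purinoceptor 13-like, an ADP receptor) was counted at 0.790 to 3.48 CPM in intact and 0.567 to 2.04 CPM in lesioned hemispheres, with a log2 fold change of -0.34 (95% confidence interval -0.82 to 0.15). Neither was called.

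The remaining tested P2Y genes were low. LOC105918645 (P2Y purinoceptor 1-like) had 4 to 24 counts per library, a log2 fold change of -0.46 and a 95% confidence interval of -0.97 to 0.05, and 7 of 10 fish were lower on the lesioned side. Its adjusted p in edgeR's test was 0.489, and without fish 3 it was 0.295, the smallest of the 17 alternatives, which ranged up to 1.00. LOC105920622 is described as P2Y purinoceptor 3-like, after a nucleotide receptor first known from the chicken. It differed widely between fish. In intact hemispheres it ran from 0.194 CPM in fish 6 to 5.99 in fish 5, and in lesioned ones from 0.934 CPM, again in fish 6, to 5.43 in fish 5. Its log2 fold change was -0.04 (95% confidence interval -0.46 to 0.39), and it was positive in 4 of 17 alternatives.

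Many P2Y genes are copies that stand near each other. In the RefSeq order, 6 of the 7 P2Y1-like genes follow each other with 1 other gene between them, the 2 P2Y13-like genes are neighbours, and LOC105915340 is next to another P2Y14-like gene. A single copy carried most of the counts of the P2Y14-like and P2Y13-like groups. LOC105915340 held 96.6% of the 2007 counts of 6 P2Y14-like genes, and LOC105932551 held 99.6% of the 268 counts of its pair. Among the P2Y1-like genes LOC105918645 held 54.7% of 490 counts, and the sum of all 7 was 2.83 ± 1.13 CPM in intact and 1.99 ± 0.793 CPM in lesioned hemispheres (SD, n = 10), lower in 7 of 10 fish. How reads that match several copies were counted is not stated, so the split between copies is uncertain. LOC105918642, another P2Y1-like gene, had 0 counts in all 20 libraries, and a count of 0 allows up to 3 counts, or 0.0148 CPM over the 20 libraries together.

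The P2X channels with usable counts were p2rx1 and p2rx7. P2X1 is known from platelets and smooth muscle in mammals. It was counted at 18.5 to 35.5 CPM (median 22.8) in intact and at 18.8 to 38.2 CPM (median 23.7) in lesioned hemispheres. It was higher on the lesioned side in 5 fish and lower in 5, with a log2 fold change of 0.06 (95% confidence interval -0.09 to 0.21). P2X7 is the channel that high ATP opens and that in mammals leads to release of interleukin-1 beta. The p2rx7 gene was counted at 7.14 to 17.1 CPM (median 12.5) in intact and at 8.36 to 16.8 CPM (median 11.2) in lesioned hemispheres, with a log2 fold change of -0.06 (95% confidence interval -0.24 to 0.12).

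The plot of 4 purinoceptor genes sets these levels side by side.

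**Figure D3:**
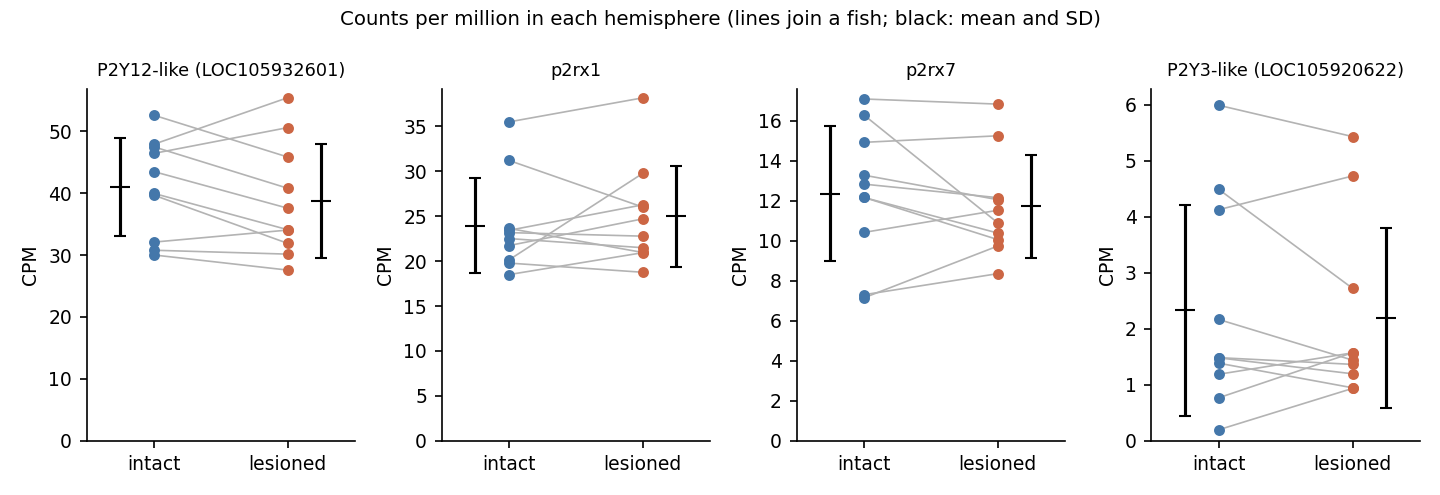
Level in CPM of LOC105932601 (P2Y12-like), p2rx1, p2rx7 and LOC105920622 (P2Y3-like) in the intact (blue) and lesioned (orange) hemispheres of 10 fish, with a line for each fish and the mean and SD in black. Lines run in both directions for each gene, and the P2Y3-like gene spans 0.194 to 5.99 CPM between intact hemispheres.

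Of P2X4, the other P2X receptor of mammalian microglia, the table lists 1 gene, p2rx4, which RefSeq names p2rx4b. It had 27 counts over all 20 libraries and at most 3 in any, and no other copy was analysed here. The P2X3 channel of sensory neurons had 5 counts for p2rx3 and 13 for LOC105932667. The best counted genes below the filter were p2rx5 (176 counts in all), LOC105915358 (P2Y purinoceptor 2-like, 153 counts) and LOC105918350 (P2Y purinoceptor 1-like, 139 counts). All 17 together had 354 counts in intact and 311 in lesioned hemispheres, between 22 and 74 per library. The filter left them out of the main test, and no difference is given for them singly.

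In most tested members, the levels of the 2 hemispheres were correlated across fish. For LOC105918495 the intact and lesioned levels correlated at Pearson's r = 0.94 (Spearman's rho = 0.92) over 10 fish, on the log2 CPM scale, which was above the r of 94.8% of all tested genes. P2Y14-like LOC105915340 had r = 0.92 (rho = 0.88), P2Y12-like LOC105932601 had 0.84 (0.93), p2ry1 had 0.83 (0.88), P2Y3-like LOC105920622 had 0.82 (0.68) and p2rx7 had 0.76 (0.78). The median over all tested genes was 0.59. Without the 2 fish farthest from the intact median, these 6 genes had r between 0.61 and 0.93. In gpr34 (r = 0.69, rho = 0.55), csf1r (0.69, 0.61) and p2rx1 (0.68, 0.55) the relation rested on those 2 fish, since r without them was 0.32, 0.35 and 0.14. In the low genes LOC105932551 (0.37, 0.42) and LOC105918645 (0.22, 0.07) it was weaker, and r without the 2 farthest fish was 0.60 and 0.23. Permutation tests (100000 resamples) gave adjusted p-values over the 11 genes of 0.0011 to 0.0217 for r and 0.0029 to 0.0637 for rho in those 6 genes, where rho of LOC105920622 missed 0.05. For gpr34, csf1r and p2rx1 they were 0.0382 to 0.0392 for r and 0.106 to 0.129 for rho. Hemispheres of a fish share the animal and its dissection.

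The plot of both hemispheres of each fish shows these relations for 4 members. The P2Y3-like gene scatters widely about the line, with log2 ratios of -0.68 to 1.53.

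**Figure D4:**
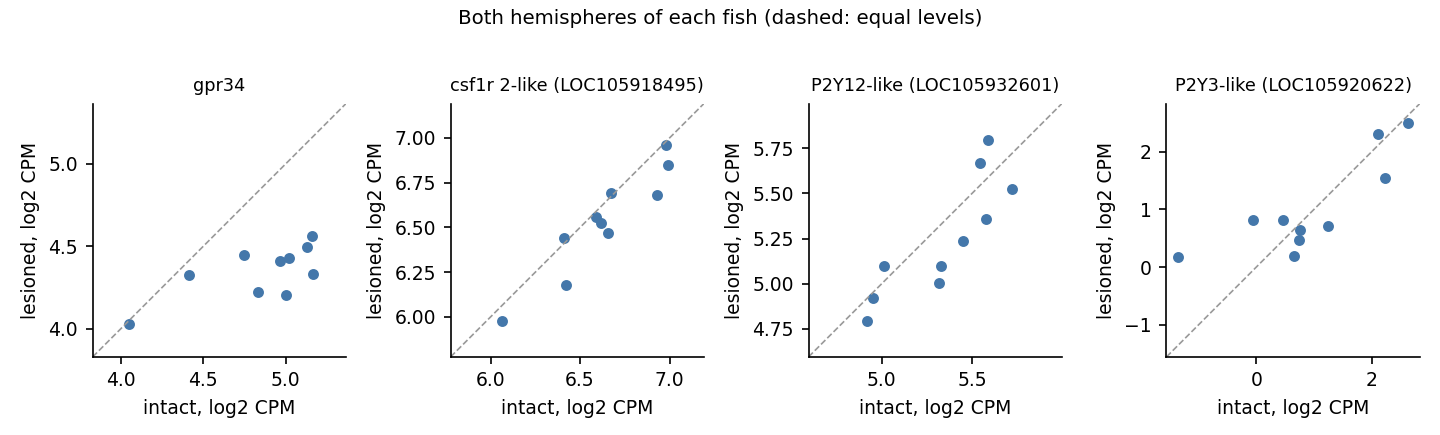
Level on the log2 CPM scale in the lesioned hemisphere (vertical) against the intact hemisphere (horizontal) of each of 10 fish for gpr34, LOC105918495 (csf1r copy), LOC105932601 (P2Y12-like) and LOC105920622 (P2Y3-like), with a dashed line of equal levels. Points of the csf1r copy follow the line (r = 0.94), whereas those of gpr34 (r = 0.69) lie below it.

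Genes whose level followed gpr34 across fish were sought in the 10 intact hemispheres. The highest Pearson's r on the log2 CPM scale, from 0.91 to 0.95, belonged to LOC105931417 (aldose reductase-related protein), LOC105916438 (a Ca(2+)-independent N-acyltransferase), LOC105924176 (amyloid beta A4 precursor protein-binding family B member 1-interacting protein-like), LOC105925456 (thrombospondin-4-B-like), LOC105926141 (B-cell linker protein-like, an adaptor of immune receptors), hpgd (prostaglandin breakdown), LOC105920137 (T-cell surface antigen CD2-like) and LOC105918692 (an arf-GAP). Their Spearman's rho in intact hemispheres ran from 0.71 for hpgd to 0.94 for LOC105916438. In the 10 lesioned hemispheres of the same fish their r was 0.10 to 0.72, with LOC105916438 (0.72), hpgd (0.64) and CD2-like LOC105920137 (0.63) the highest. Of the 8, only LOC105926141 was called at 0.1, and it rose on the lesioned side (log2 fold change 0.38, standard error 0.09, adjusted p = 0.0961, edgeR).

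Of the microglia and macrophage list, 17 genes were tested, members of the set not counted. Their median r with gpr34 was 0.66 in intact and 0.33 in lesioned hemispheres, against 0.01 and 0.01 over all other tested genes, and 15 and 14 of the 17 were positive. By r they were led by ncf1, a subunit of the phagocyte oxidase (r = 0.88), LOC105930580 (macrophage-expressed gene 1, r = 0.87) and LOC105932759 (coronin-1A-like, r = 0.82). Spearman's rho gave another order, with LOC105930580 at 0.89, gpr84 at 0.88, LOC105932759 at 0.78 and ncf1 at 0.60. The 10 other members had a median r of 0.33 in intact and 0.33 in lesioned hemispheres, with 8 positive in each. In intact hemispheres r ran from -0.23 for P2Y14-like LOC105915340 and -0.07 for P2Y3-like LOC105920622 to 0.67 for csf1r and 0.79 for LOC105918495, and the P2Y12-like gene had 0.42. The 10 fish give every gene the same points, fish 10 and 3 were lowest in gpr34, and no p-value is attached to these values.

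**Figure D5:**
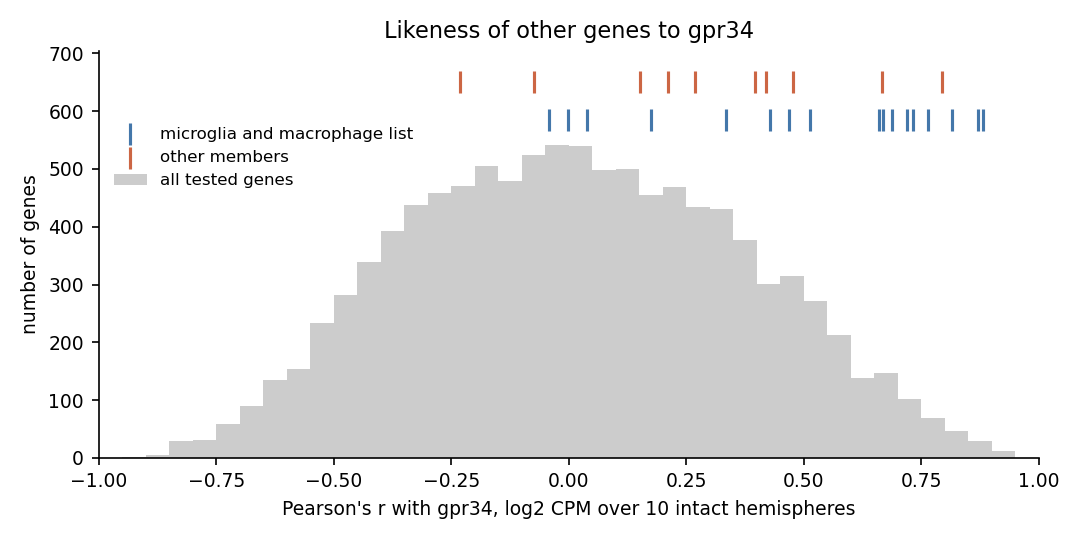
Distribution of Pearson's r between gpr34 and each of 10512 other tested genes on the log2 CPM scale over the 10 intact hemispheres, with the 17 genes of the microglia and macrophage list (blue ticks) and the 10 other members (orange ticks). The median of the list is 0.66 and that of all genes 0.01.

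The microglia and macrophage genes were also compared between hemispheres. Among the 17, 1 rose and none fell at 0.1 in edgeR's test, where 1.28% of all tested genes were called higher and 0.0951% lower. An unadjusted p-value under 0.05 was found in 4, against 11.7% of all tested genes. DESeq2 called 1 higher and 1 lower at 0.1, where it called 166 higher and 10 lower among all tested genes. The median log2 fold change of the list was -0.06. The gene that rose was gpr84, a receptor for fatty acids that inflammation induces in mammalian macrophages, up by 0.69 on the log2 scale (standard error 0.12, adjusted p = 0.00658, edgeR) and higher in 9 of 10 fish. It was not called without fish as a block, and the list held 1 higher and 1 lower call without fish 3 or without fish 10. Of all tested genes, 175 were called higher and 37 lower without fish 3, and 105 and 7 without fish 10. At 0.4 there were 3 lower genes, against 3.97% of all tested genes: lcp1 (-0.17, adjusted p = 0.162), c1qa (-0.18, adjusted p = 0.165) and the C1q gene LOC105938255 (-0.25, adjusted p = 0.311). The summed level of the list was 1270 to 2285 CPM (median 1931) in intact and 1296 to 2094 CPM (median 1852) in lesioned hemispheres, lower in 7 of 10 fish. The gene spi1, which is not in this list but among the genes around csf1r, had 20.3 ± 4.94 CPM in intact and 18.6 ± 3.46 CPM in lesioned hemispheres (SD, n = 10). Its log2 fold change was -0.12 (adjusted p = 0.626, edgeR). Most of the summed level of the list came from cd74, so the sum mainly follows that gene. It had 1181 ± 261 CPM in intact and 1108 ± 202 CPM in lesioned hemispheres (-0.08, adjusted p = 0.467, edgeR). The untested MARCO-like gene LOC105915326 was at 0 in every library.

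Markers of other cells were measured beside the receptors. In fish, thrombocytes take the place of platelets, whose mammalian counterparts carry P2Y1, P2Y12 and P2X1. Of 5 thrombocyte genes tested, mpl, the thrombopoietin receptor, rose (log2 fold change 0.61, standard error 0.13, adjusted p = 0.0410, edgeR), and gp1bb (0.80, adjusted p = 0.249) and the platelet glycoprotein IX-like gene LOC105932291 (0.56, adjusted p = 0.387) had positive values that missed 0.1. The summed level of the 5 genes was 52.2 to 91.8 CPM in intact and 56.1 to 119 CPM in lesioned hemispheres, higher on the lesioned side in 8 of 10 fish. Most of that sum came from fli1 and the coagulation factor XIII A chain-like gene LOC105919186, with means of 43.2 and 18.9 CPM in lesioned hemispheres. Their log2 fold changes were 0.001 (adjusted p = 0.997, edgeR) and 0.04 (adjusted p = 0.865, edgeR). The level of the sum therefore mainly reflects genes that were not called. Its higher mean in lesioned hemispheres came mostly from mpl, gp1bb and LOC105932291, each of which was higher in 9 of 10 fish. In the endothelium list 1 of 8 tested genes rose at 0.1, LOC105915527 (claudin-5-like, log2 fold change 0.59, adjusted p = 0.00891, edgeR). The better counted cldn5 (160 ± 13.7 CPM in intact hemispheres) had -0.13 (adjusted p = 0.353). In the midbrain and diencephalon list 1 of 13 rose, otx2 (0.28, adjusted p = 0.0476). Over all tested genes, 1.28% were called higher at 0.1. The endothelium list had 5 negative and 3 positive values (median -0.02), and the midbrain and diencephalon list 8 and 5 (median -0.03). Without fish as a block these 3 lists held no call. Without fish 1 or fish 9 the thrombocyte list held 0 calls, and without fish 6 it held 3, where 141 of all tested genes were called. The midbrain and diencephalon list held 0 without fish 1, 4 or 10. Granulocyte (3 tested), lymphocyte (7), erythrocyte (2), neuron (12), radial glia and astroglia (7), oligodendrocyte (9) and skeletal muscle (5) lists held no call at 0.1 with edgeR or DESeq2. The 3 granulocyte genes were ncf4 (log2 fold change 0.28) and the neutrophil cytosol factor 2-like genes LOC105920298 (-0.21) and LOC105920301 (-0.32). Their relative ncf1 is in the microglia and macrophage list, and the peroxidase-like genes did not pass the filter. Granulocytes were thus not told apart from other phagocytes. An unadjusted p-value under 0.05 was found in 2 of 3 granulocyte, 1 of 2 erythrocyte and 2 of 5 muscle genes. It was found in 1 of 12 neuron and 1 of 9 oligodendrocyte genes, and in 0 lymphocyte and 0 radial glia and astroglia genes. In the lists with a call it was found in 3 of 5 thrombocyte, 3 of 8 endothelium and 2 of 13 midbrain and diencephalon genes. The share of all tested genes was 11.7%. The granulocyte list held 1 call without fish 7, and the erythrocyte list 1 without fish 6, where 165 and 141 of all tested genes were called. The summed level of the muscle list was 86.6 to 499 CPM in intact and 233 to 601 CPM in lesioned hemispheres, higher in 8 of 10 fish. Most of that sum came from pvalb (parvalbumin), at 309 ± 122 CPM in intact and 405 ± 92.7 CPM in lesioned hemispheres (SD, n = 10). Its log2 fold change was 0.51 (adjusted p = 0.318, edgeR), so the sum mainly follows that gene. The creatine kinase gene ckm and the alpha skeletal muscle actin-like genes of this list did not pass the filter. Which cells the pvalb counts came from was not tested, so the sum is not a measure of muscle RNA. The part of these shifts in the values of gpr34 and the P2 receptors was not tested.

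Genes that act around the receptors were read from 4 lists. Among 12 tested genes for nucleotide breakdown and adenosine, none was called at 0.1 by edgeR or DESeq2. The list was also meant for ATP release, but no gene for release was among those tested. An unadjusted p-value under 0.05 was found in 3, against 11.7% of all tested genes. At 0.4, 1 was higher and 2 were lower, where 6.12% of all tested genes were called higher and 3.97% lower. The median log2 fold change was 0.00. Without fish 5 the list held 1 call at 0.1, where 216 of all tested genes were called. The description search also took in LOC105934715, an RNA-editing enzyme that does not act on free adenosine. The gene with the smallest adjusted p was entpd1, an enzyme that strips phosphates from extracellular ATP and ADP, at 62.5 ± 13.3 CPM in intact and 69.4 ± 13.6 CPM in lesioned hemispheres (SD, n = 10; log2 fold change 0.16, standard error 0.04, adjusted p = 0.130), higher in 8 of 10 fish. Next came LOC105934746, an adenosine A1 receptor (-0.29, adjusted p = 0.278), and ada, which breaks down adenosine (-0.20, adjusted p = 0.363). The ectonucleotidase nt5e, which makes adenosine, had -0.10 (adjusted p = 0.546).

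For the lipid ligand of gpr34, 3 genes were tested, of which none was called at 0.1 by edgeR or DESeq2 and none had an unadjusted p-value under 0.05. They include pla1a, which makes lysophosphatidylserine in mammals, at 152 ± 25.2 CPM in intact and 146 ± 16.6 CPM in lesioned hemispheres (SD, n = 10; log2 fold change -0.05, adjusted p = 0.779), and LOC105918048, like ABHD12, which degrades it (-0.08, adjusted p = 0.859).

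Around csf1r, 9 genes for adaptors and transcription factors were tested. Of these, 3 had an unadjusted p-value under 0.05, against 11.7% of all tested genes. At 0.1, 1 rose, where 1.28% of all tested genes were called higher. This was cebpa, a myeloid transcription factor that other cells also express, at 33.6 ± 7.82 CPM in intact and 53.3 ± 11.3 CPM in lesioned hemispheres (SD, n = 10; log2 fold change 0.67, standard error 0.05, adjusted p = 8.0e-06, edgeR), higher in 10 of 10 fish. At 0.4 stat3 (0.06, adjusted p = 0.387) and inpp5d (0.13, adjusted p = 0.318) were higher too, where 6.12% of all tested genes were called higher. The transcription factors of the lineage, spi1 and the interferon regulatory factor 8-like gene LOC105918227 (0.13, adjusted p = 0.641), were not called. The ligand genes csf1 and il34 were not analysed here.

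In the axis downstream of P2X7, 6 genes were tested and none was called at 0.1 by edgeR or DESeq2. An unadjusted p-value under 0.05 was found in 1, against 11.7% of all tested genes. That gene was LOC105938151, interleukin-1 beta-like, with 364 counts over all libraries (log2 fold change 0.53, standard error 0.21, adjusted p = 0.339, edgeR). Another tested gene with the same description, LOC105915597, had 201 counts over all libraries. Its log2 fold change was 0.07 (standard error 0.20, adjusted p = 0.931, edgeR). It was lower on the lesioned side in 6 fish and higher in 4. The caspase-1-A-like gene LOC105932585, whose enzyme cuts interleukin-1 beta, differed by 0.06 on the log2 scale (adjusted p = 0.927).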

How the data were processed

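RNA-seq counts of 20 libraries (10 fish, 1 lesioned and 1 intact hemisphere each) were used. Adapter trimming (cutadapt 1.11), STAR alignment to the Fundulus_heteroclitus-3.0.2 genome and gene counting with htseq were done by the authors, and the deposited counts are whole numbers without normalization. The methods name TruSeq libraries and the labels SMART-Seq; the strand setting is not given in the sources used here. Columns of the authors' own DESeq2 comparison (fold changes and p-values) were not used.

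Of 16264 entries, 2585 transfer RNAs (at most 0.00458% of gene counts) were left out. In R 4.3.3, edgeR 4.0.16 was run with filterByExpr (minimum count 10, minimum total 15), TMM and fish as a block, and at these depths 1 CPM is near 10 counts. DESeq2 1.42.0 was an alternative. A prior count of 2 entered the log2 CPM from which ratios within fish were taken. Fish were paired by the labels' subject numbers; deviations from group means correlated at 0.385 to 0.731 within a fish and -0.207 to 0.201 between fish. The test was checked on simulated counts with known changes. Members were matched by gene ID to RefSeq (28 of 28) for names and order.

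Members and gene lists were chosen with earlier results of these data known. Named genes were gpr34, both csf1r genes, members with an adjusted p of 0.4 or less, the microglial P2Y12, P2Y13, P2X4 and P2X7 and the best counted P2Y and P2X genes, up to 4 called genes of each list, and the 8 genes most like gpr34; p2rx3, p2rx5 and the other members, spi1, cd74, and the list genes named without a call at 0.1 were added after values had been seen. Alternatives were no block, other scalings, other filters, DESeq2, and leaving out each fish.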

Additional observations from a re-analysis of the deposited data

Results flagged for a closer look

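In csf1r, the log2 ratio of lesioned over intact was -0.76 in fish 9, where the nearest fish had -0.36 and the highest had 0.08. That gap made up 0.479 of the range over the 10 fish. It was the only such value among 33 groups of 10 values (intact levels, lesioned levels and ratios of the 11 tested members), and chance alone flags about 1 group in 20.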

How the results depend on the processing

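Over 17 alternatives, the log2 fold change of gpr34 was -0.56 to -0.48, that of csf1r -0.30 to -0.21, that of p2ry1 -0.25 to -0.16 and that of LOC105918495 -0.11 to -0.08. The other tested members were negative in all 17, except p2rx1 (0.00 to 0.10), p2rx7 (negative in 16) and LOC105920622 (negative in 13, and never called). Among all genes, 145 were called at 0.1, and 57 without fish as a block; the count was 101 to 216 when single fish were left out. At 0.4 there were 1060 calls, 88 without the block, 674 without a filter, 370 by DESeq2, and 279 (without fish 8) to 2066 (without fish 3) when single fish were left out. Members other than gpr34 called at 0.1 numbered 0 to 1, and at 0.4 1 to 5, when single fish were left out; at 0.4, 0 were called without the block and 2 by DESeq2. The 1060 calls were 643 higher and 417 lower, but 573 higher and 781 lower under upper quartile scaling and 575 and 636 with total counts. The difference between csf1r copies was -0.20 to -0.12 when single fish were left out, an alternative chosen after seeing the data. The lowest tested members, LOC105918645 (4 to 24 counts per library), LOC105932551 (6 to 32) and LOC105920622 (2 to 59), had standard errors of 0.20 to 0.24, so a difference as small as that of csf1r was not detectable in them. The causes of these shifts were not tested.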
